A study of Mus musculus with 85 samples.

Results

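Hepatocytes of BALB/cJ mice were compared with hepatocytes of C57BL/6J mice across all genes, in the 5 of 85 libraries of the series whose labels give the cell type as hepatocyte and the strain as either of these inbred strains. BALB/cJ hepatocytes had 2 libraries and C57BL/6J hepatocytes had 3, all labelled as control treatment. According to the study's methods the mice were adult males from a commercial breeder, and hepatocytes were freed by perfusing the liver with collagenase in the presence of flavopiridol, an inhibitor of transcription, and pelleted through Percoll. The study's methods give the mice free access to standard chow as a default and name no fast in the hepatocyte preparation. The labels, on the other hand, describe an overnight fast with no injection for the controls of the series' lipopolysaccharide experiments, which were made on other cells. The labels and the study's methods do not state the time of day at which these livers were taken. The study collected these cells to ask which signals from liver cells reach Kupffer cells, which are macrophages that reside in the liver sinusoids, and polyadenylated RNA was sequenced for each library.

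Hepatocytes are the main cells of the liver. They make most plasma proteins, store and release glucose, synthesize fatty acids, cholesterol and bile acids, and clear drugs and hormones through cytochrome P450 and conjugating enzymes. Inbred strains differ at many gene variants and in several gene clusters that were duplicated or lost in one strain, and many genes of the liver also follow feeding, stress and the time of day. In bulk RNA, fewer cells of a type and less RNA per cell cannot be told apart.

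The libraries held 9187077 to 21445259 counts, and the markers of hepatocytes were abundant in all 5. The 20 genes of the hepatocyte identity list, such as albumin, summed to 127360 and 130760 TPM (a level scaled for transcript length and library depth) in BALB/cJ, against 156410, 136570 and 108310 TPM in C57BL/6J. The markers of Kupffer cells summed to at most 253 TPM and those of liver sinusoidal endothelial cells (LSECs) to at most 160 TPM, and neither sum separated the strains. Single Kupffer cell markers did: C1qb, Folr2 and Marco were lower in both BALB/cJ libraries than in every C57BL/6J library, and Nr1h3 was higher. No Kupffer cell marker that was tested was called. Markers of hepatic stellate cells, the fat- and vitamin A-storing cells of the liver, summed to 121 and 95.6 TPM in BALB/cJ, against 70.5, 79.0 and 50.0 TPM in C57BL/6J. They were thus higher in both BALB/cJ libraries, and none of the 3 stellate markers tested (Dcn, Ecm1 and Rgs5) was called. The part of these markers in the results was not tested. Nothing in the labels ties each library to an animal of its own, and the p-values therefore rest on the spread between libraries, which may be technical.

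The label of C57BL/6J replicate 3 needs a caution. Nnt encodes the mitochondrial proton pump nicotinamide nucleotide transhydrogenase, and C57BL/6J mice are known to carry a deletion within it (the gene lies on chromosome 13, positions 119335527 to 119409257 of mm10). Nnt stood at 38.2 and 36.1 TPM in BALB/cJ hepatocytes, against 13.7, 15.0 and 38.5 TPM in C57BL/6J replicates 1, 2 and 3. The library labelled C57BL/6J replicate 3 therefore lay at the BALB/cJ level, while the Kupffer cell, LSEC and stellate cell libraries of C57BL/6J had between 4.84 and 13.6 TPM and those of BALB/cJ had between 14.7 and 27.2 TPM. Over the 3 C57BL/6J libraries Nnt did not pass the test (log2 fold change 0.62, SE 0.40, adjusted p = 0.29), and without replicate 3 it did (log2 fold change 1.19, adjusted p = 0.0011). At the 686 genes called without this library it was nearer to the other C57BL/6J libraries for 526 genes and nearer to BALB/cJ for 160. All 5 libraries had male levels of sex-linked genes, with Xist at most at 0.052 TPM and Eif2s3y at least at 22.4 TPM. Results are given with replicate 3, and without it where that changes them.

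Of 23608 genes in the table, 5731 were tested and 507 were called different, which is 8.85% of those tested. A gene was called at an adjusted p under 0.05 with an absolute log2 fold change above 1, and was tested when its mean was above 8 TPM in at least 1 strain. Of the called genes, 227 were higher in BALB/cJ (3.96% of those tested) and 280 were lower (4.89%). The counts of called members given below for each gene list are to be read beside these shares. With library totals in place of scaling by trimmed means (TMM), 297 were higher and 225 lower, and the median log2 fold change of all genes was 0.12, against 0.0014 with TMM. Without C57BL/6J replicate 3 the test called 686 genes (12%), 306 higher (5.34%) and 380 lower (6.63%). With BALB/cJ replicate 1 left out 240 genes were called, and with BALB/cJ replicate 2 left out 255. Of the 507 calls, 173 held with each of the 5 libraries left out in turn, and such genes are described below as held throughout. The TPM of the strains did not overlap at any called gene, but this was also so for 58.1% of all genes tested. When libraries were scaled by their totals alone, the median log2 fold change of all genes moved to 0.12, against 0.00 in the main scaling, and the calls split into 297 higher and 225 lower, so the balance of directions depends on the scaling.

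**Figure D1:**
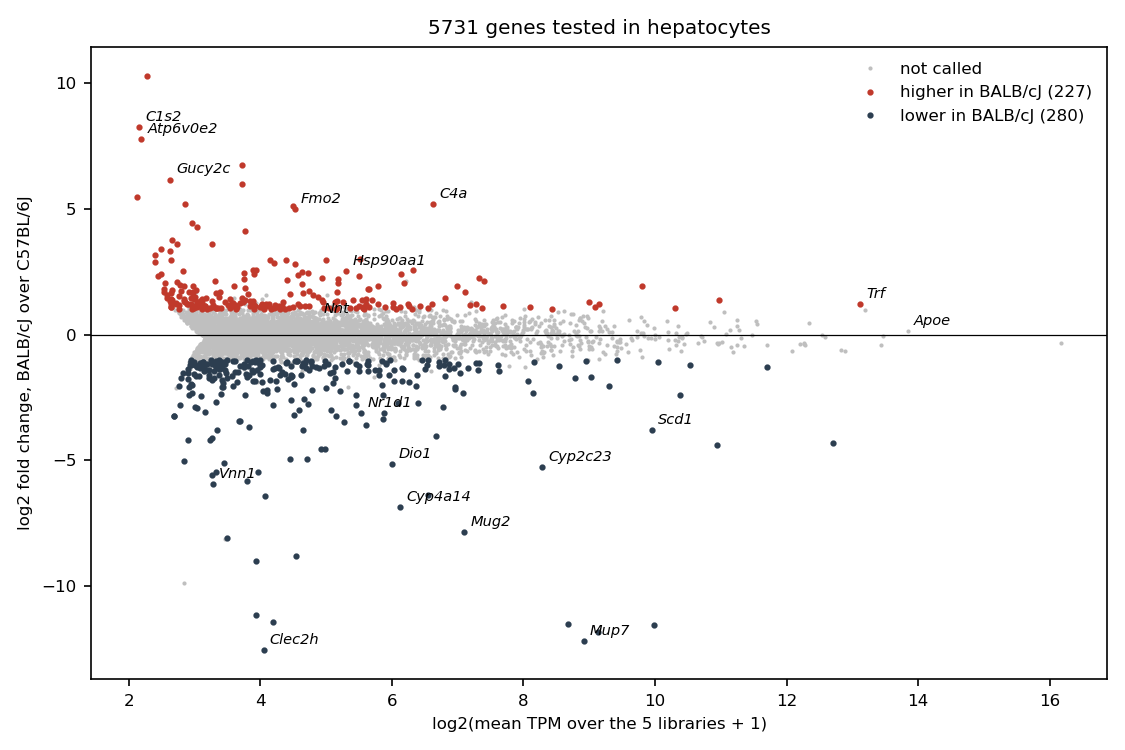
Log2 fold change of BALB/cJ over C57BL/6J hepatocytes (vertical axis) against log2 of the mean TPM plus 1 over the 5 libraries (horizontal axis), 1 point for each of 5731 genes. Red points are the 227 genes called higher in BALB/cJ, dark points the 280 called lower, and grey points were not called; Scd1 and Trf lie at high levels, whereas C1s2 and Clec2h are low or absent in 1 strain.

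The largest differences were of genes nearly silent in 1 strain. Clec2h, a C-type lectin-like gene on chromosome 6 (positions 128662385 to 128677374 of mm10), had no read in either BALB/cJ library, against 24.5, 32.2 and 21.2 TPM in C57BL/6J. With a floor of 3 counts in each BALB/cJ library, it was at least 291-fold lower in BALB/cJ. Mug2, a murinoglobulin of the same chromosome that inhibits proteases in plasma, had 1.24 and 0.910 TPM in BALB/cJ, against 235, 228 and 216 TPM in C57BL/6J (log2 fold change -7.84, SE 0.25, adjusted p = 3.1e-05). Cib3, a gene of the calcium- and integrin-binding family, gave 1 count over both BALB/cJ libraries and 322 over the C57BL/6J libraries, a ratio of 305 after scaling with a 95% counting interval of 54.4 to 12084. Its call was lost without BALB/cJ replicate 1 (adjusted p = 0.072) or replicate 2 (adjusted p = 0.067). Further genes nearly absent from BALB/cJ were Mfsd2a, the carrier of lysophospholipids with docosahexaenoic acid (0.497 and 0.280 TPM in BALB/cJ, against 18.8, 21.5 and 23.7 TPM in C57BL/6J), and the kinase gene Camk1d (0.489 and 0.214 TPM in BALB/cJ, against 14.7, 16.3 and 13.3 TPM in C57BL/6J). Dio1, the deiodinase that activates thyroid hormone, had 0.996 and 5.53 TPM in BALB/cJ, against 57.4, 97.1 and 154 TPM in C57BL/6J (log2 fold change -5.16, SE 0.80, adjusted p = 0.0091). Both strains varied at Dio1, and the highest BALB/cJ value still lay below every C57BL/6J value.

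In the other direction, C1s2, which encodes a protease of the first complement component, had 8.37 and 8.90 TPM in BALB/cJ, against 0.098, 0 and 0 TPM in C57BL/6J. This was a ratio of 355 between the strains, with a 95% counting interval of 98.0 to 2939, since C57BL/6J held 2 counts in all. Gucy2c, the intestinal receptor for guanylin and bacterial enterotoxin, had 11.1 and 14.3 TPM in BALB/cJ, against 0.232, 0.129 and 0.143 TPM in C57BL/6J (log2 fold change 6.16, SE 0.29, adjusted p = 0.00015). Fmo2, a flavin-containing monooxygenase, had 51.8 and 54.0 TPM in BALB/cJ, against 0.742, 2.54 and 1.08 TPM in C57BL/6J (log2 fold change 5.00, SE 0.43, adjusted p = 0.0010). Cox6b2, a testis form of a cytochrome c oxidase subunit, rose by 6.00 on the log2 scale (SE 0.47), the axonemal dynein gene Dnaic1 by 5.48 (SE 0.31), the phosphohydrolase gene Hddc3 by 4.28 (SE 0.57) and the proteoglycan gene Cspg5 by 3.41 (SE 0.34). At each of these genes both BALB/cJ libraries lay above all C57BL/6J libraries. Among abundant genes, Trf, the iron carrier transferrin, had 13867 and 14191 TPM in BALB/cJ, against 4499, 5936 and 6105 TPM in C57BL/6J. It rose 2.33-fold (log2 fold change 1.22, SE 0.15, adjusted p = 0.0028) and was the only called gene of the 20 in the hepatocyte identity list. Apoe, the apolipoprotein of remnant particles, had 16022 and 16790 TPM in BALB/cJ, against 13208, 13124 and 14305 TPM in C57BL/6J, and was not called (log2 fold change 0.14, SE 0.12, adjusted p = 0.42).

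**Figure D2:**
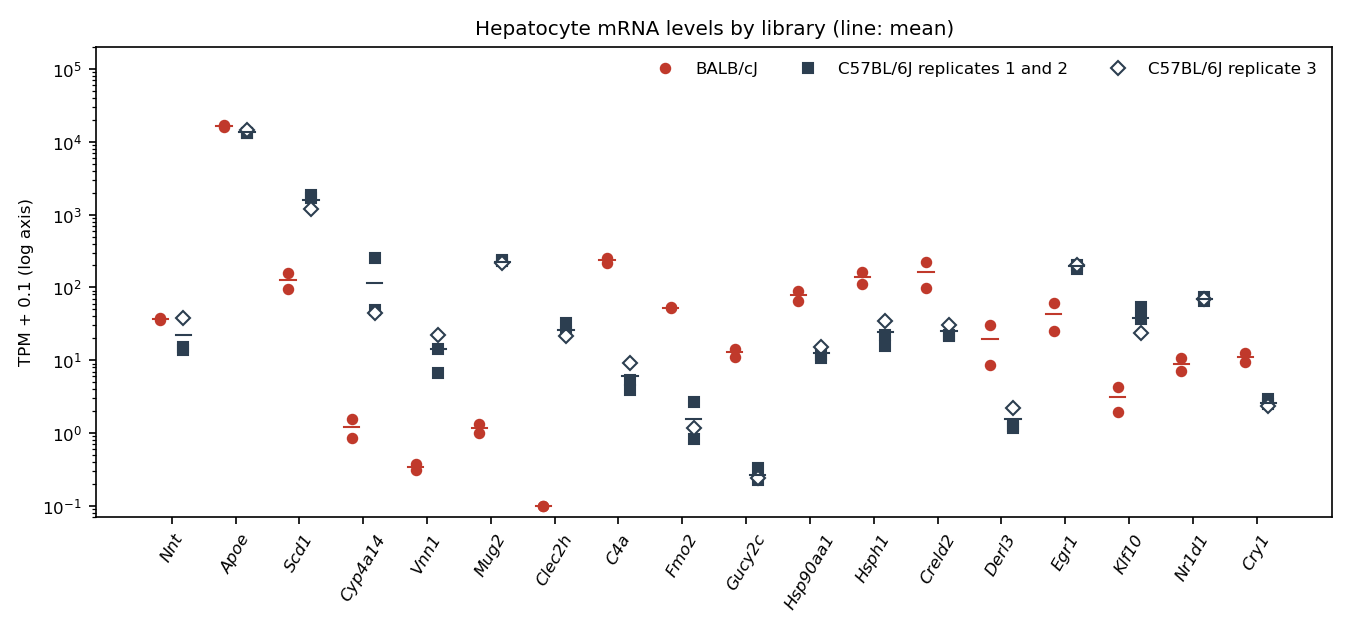
TPM plus 0.1 in each hepatocyte library on a log axis for 18 named genes, with BALB/cJ (red circles) left of C57BL/6J (dark squares for replicates 1 and 2, open diamonds for replicate 3) and a line at each mean. The strains overlap at Nnt, where replicate 3 of C57BL/6J lies at the BALB/cJ level, and are apart at the other genes plotted, although Apoe differs little.

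Of the protein folding genes that were called, all but Hspa8 and Ppp1r15a were higher in BALB/cJ. Cells answer misfolded proteins in separate ways: in the cytosol, heat shock factors bind repeated GAA elements before chaperone genes, and in the endoplasmic reticulum, ATF6 and XBP1 bind an element made of CCAAT, a spacer and CCACG. As members of both lists were called, the 250 bases before their starts were searched in the RefSeq promoters of GRCm38.p6, the assembly of mm10. The element, CCAAT and CCACG with 9 bases of any kind between them, on either strand, was found in 33 of 27025 promoters (0.122%), in 0.242% of the 4550 promoters of tested genes and in 8 of the 19 tested members of the unfolded protein response list with a promoter entry. It was in 4 of the 6 called members and in 4 of the 13 not called. These 4 are shown because they carry the element and were called, with the element in capitals on the strand of the gene.
Hspa5, chr2:34771840-34772089, plus strand: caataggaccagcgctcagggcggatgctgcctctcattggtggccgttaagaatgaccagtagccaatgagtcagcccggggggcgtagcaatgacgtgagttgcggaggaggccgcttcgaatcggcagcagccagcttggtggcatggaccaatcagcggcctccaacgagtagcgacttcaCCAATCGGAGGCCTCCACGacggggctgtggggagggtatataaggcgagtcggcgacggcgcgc
Pdia6, chr12:17266339-17266588, plus strand: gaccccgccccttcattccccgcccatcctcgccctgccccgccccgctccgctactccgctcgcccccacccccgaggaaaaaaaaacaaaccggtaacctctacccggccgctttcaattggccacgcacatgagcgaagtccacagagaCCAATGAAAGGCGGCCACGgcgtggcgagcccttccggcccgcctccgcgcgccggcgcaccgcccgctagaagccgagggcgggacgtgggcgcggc
Creld2, chr15:88819396-88819645, plus strand: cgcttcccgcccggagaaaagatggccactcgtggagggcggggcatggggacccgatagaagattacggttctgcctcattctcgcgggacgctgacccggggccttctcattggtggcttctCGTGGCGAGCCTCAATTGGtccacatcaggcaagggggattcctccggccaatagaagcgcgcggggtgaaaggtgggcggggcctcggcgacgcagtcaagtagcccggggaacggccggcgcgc
Derl3, chr10:75893148-75893397, plus strand: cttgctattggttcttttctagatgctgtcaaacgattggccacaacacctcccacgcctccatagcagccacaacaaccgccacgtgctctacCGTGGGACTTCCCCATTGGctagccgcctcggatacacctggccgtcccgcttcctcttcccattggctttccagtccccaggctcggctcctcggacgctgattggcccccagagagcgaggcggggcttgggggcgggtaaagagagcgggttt
The other 4 members with the element (Hsp90b1, Dnajc3, Calr and Canx) were not called. Sdf2l1, called higher, and Ppp1r15a, called lower, had no match in this window. Hyou1 was called higher but had no promoter entry, so it was not searched. A pair of inverted heat shock half-sites, GAANNTTC or TTCNNGAA, where N is any base, was found in 12.9% of all promoters and 10.3% of those of tested genes. Of the 18 tested heat shock and chaperone genes with a promoter entry, 4 of the 8 called and 2 of the 10 not called held it. The E-box CACGTG was in 9.21% of the promoters of tested genes, and in 2 of 6 called and 2 of 10 uncalled clock genes with an entry. The cAMP response element TGACGTCA was in 2.57% of them, and in 2 of 9 called and 0 of 6 uncalled immediate-early genes with an entry. Hsph1 and Hspe1 are shown as called genes with 1 match and with 3 overlapping matches, with the matches in capitals.
Hsph1, chr5:149636337-149636586, minus strand: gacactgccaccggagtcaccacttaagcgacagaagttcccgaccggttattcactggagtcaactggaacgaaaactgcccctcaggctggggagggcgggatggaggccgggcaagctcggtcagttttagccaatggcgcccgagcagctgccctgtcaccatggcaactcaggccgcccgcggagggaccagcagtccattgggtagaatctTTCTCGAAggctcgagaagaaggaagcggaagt
Hspe1, chr1:55087898-55088147, plus strand: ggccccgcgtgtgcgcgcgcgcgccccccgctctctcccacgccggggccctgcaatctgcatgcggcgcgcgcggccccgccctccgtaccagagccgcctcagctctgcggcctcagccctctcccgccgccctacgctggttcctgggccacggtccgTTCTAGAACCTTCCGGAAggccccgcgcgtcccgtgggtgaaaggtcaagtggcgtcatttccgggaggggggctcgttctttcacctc
A match describes the letters of the reference and does not show that a factor binds there.

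In the heat shock and chaperone list, 10 of 22 genes tested were higher in BALB/cJ and 1 was lower, with a median log2 fold change of 0.98. Hsp90aa1, the inducible cytosolic HSP90, had 90.4 and 65.3 TPM in BALB/cJ, against 10.7, 11.6 and 14.9 TPM in C57BL/6J. It rose 5.74-fold (log2 fold change 2.52, SE 0.19, adjusted p = 0.00059). Hsph1, an HSP110 that recharges HSP70 with ATP, had 164 and 112 TPM in BALB/cJ, against 15.8, 22.4 and 34.2 TPM in C57BL/6J, a 5.25-fold rise. Hspa1b, an inducible HSP70, had 60.1 and 24.7 TPM in BALB/cJ, against 4.39, 4.31 and 6.00 TPM in C57BL/6J (log2 fold change 2.98, SE 0.35, adjusted p = 0.0026). BALB/cJ replicate 1 was the higher of the BALB/cJ libraries at each of these 3 genes, and both lay above all C57BL/6J libraries. Hsp90ab1, Hspa4l, Hspb1, Hspe1, Chordc1, Ahsa2 and Stip1 were the other members called higher, and Hsp90aa1, Hsph1, Hspa1b, Hsp90ab1 and Hspa4l held throughout. Hspa8, the constitutive HSP70, went the other way, with 99.8 and 70.9 TPM in BALB/cJ, against 256, 175 and 186 TPM in C57BL/6J (log2 fold change -1.41, SE 0.26, adjusted p = 0.012). Its call was lost without BALB/cJ replicate 1 (adjusted p = 0.062) or replicate 2 (0.12). The list had 5 members called without BALB/cJ replicate 1, 7 without C57BL/6J replicate 1 and 14 without C57BL/6J replicate 3, and its median lay between 0.82 and 1.12 with each library left out.

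In the unfolded protein response list, 6 of 21 genes tested were higher in BALB/cJ and 1 was lower (median log2 fold change 0.64). Derl3, which passes misfolded proteins out of the endoplasmic reticulum, had 30.6 and 8.37 TPM in BALB/cJ, against 1.07, 1.14 and 2.11 TPM in C57BL/6J (log2 fold change 3.61, SE 0.57, adjusted p = 0.0072). Creld2, a secreted protein of the endoplasmic reticulum stress response, had 222 and 98.7 TPM in BALB/cJ, against 22.3, 21.3 and 30.7 TPM in C57BL/6J (log2 fold change 2.57, SE 0.33, adjusted p = 0.0034). Sdf2l1, a cofactor of the chaperone BiP, had 104 and 68.9 TPM in BALB/cJ, against 16.6, 12.2 and 18.8 TPM in C57BL/6J (log2 fold change 2.32, SE 0.24, adjusted p = 0.0017). BALB/cJ replicate 1 was again the higher library, and the BALB/cJ libraries differed from each other most at Derl3. Hspa5, which encodes BiP itself, had 986 and 659 TPM in BALB/cJ, against 252, 286 and 371 TPM in C57BL/6J, and Pdia6, a disulfide isomerase, had 265 and 221 TPM in BALB/cJ, against 86.7, 91.0 and 106 TPM in C57BL/6J. The gene called lower was Ppp1r15a, the phosphatase subunit that relieves the block of translation in the response, with 7.94 and 6.75 TPM in BALB/cJ, against 14.1, 18.6 and 20.7 TPM in C57BL/6J (log2 fold change -1.41, SE 0.19, adjusted p = 0.0045). The transcription factor genes Atf4, Ddit3 and Xbp1 were not called. Derl3, Creld2, Sdf2l1 and Pdia6 held throughout, while Hspa5 lost its call without BALB/cJ replicate 1 (adjusted p = 0.077) and Ppp1r15a without BALB/cJ replicate 2 (0.051). Hyou1 was lost without BALB/cJ replicate 1 (adjusted p = 0.22), without C57BL/6J replicate 2 (0.10) and, at a log2 fold change of 0.93, without C57BL/6J replicate 3.

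Immediate-early genes, which cells induce within minutes of growth factors or stress, were lower in BALB/cJ. Of 20 tested, 13 were called lower and 0 higher, against 4.89% and 3.96% of all genes, and their median log2 fold change was -1.49. Klf10, a TGF-beta-induced zinc finger factor, had 4.17 and 1.85 TPM in BALB/cJ, against 37.1, 54.3 and 23.7 TPM in C57BL/6J (log2 fold change -3.79, SE 0.50, adjusted p = 0.0041). Cyr61, a matricellular protein, had 5.89 and 7.65 TPM in BALB/cJ, against 30.9, 44.2 and 75.6 TPM in C57BL/6J (log2 fold change -3.01, SE 0.37, adjusted p = 0.0030). Egr1, another zinc finger factor, had 60.5 and 25.4 TPM in BALB/cJ, against 179, 205 and 205 TPM in C57BL/6J (log2 fold change -2.33, SE 0.35, adjusted p = 0.0062). BALB/cJ replicate 2 was lower than replicate 1 at Klf10 and Egr1, and no library of one strain overlapped the other. The AP-1 genes Jun, Junb, Fosb, Atf3 and Maff, and Nr4a1, Zfp36, Dusp1, Ier2 and Btg2 were the other 10, while Fos, at 66.2 and 33.3 TPM in BALB/cJ, against 30.4, 133 and 217 TPM in C57BL/6J, overlapped and did not pass the test. Klf10, Cyr61, Egr1 and Zfp36 held throughout. Fewer members were called with either BALB/cJ library left out. Without C57BL/6J replicate 3 the number called was 14, among them Sgk1, which was higher in BALB/cJ (log2 fold change 1.59, adjusted p = 0.028). Many of these genes are also abundant in other liver cells, and 6 members were called when genes with more than 2 times the hepatocyte level in Kupffer cells, LSECs or stellate cells were set aside. The summed markers of stellate cells were higher in BALB/cJ, and those of Kupffer cells and LSECs overlapped between strains. Among single Kupffer cell markers, C1qb, Folr2 and Marco were lower in both BALB/cJ libraries, and Nr1h3 was higher. The part of other cells in these calls was not tested.

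The circadian clock list moved in both directions, with 4 of 20 genes tested higher in BALB/cJ and 3 lower. Nr1d1, which encodes the nuclear receptor REV-ERB alpha that represses other clock genes, had 10.7 and 6.91 TPM in BALB/cJ, against 74.6, 64.2 and 69.8 TPM in C57BL/6J (log2 fold change -3.11, SE 0.23, adjusted p = 0.00059). The clock output factor Dbp had 102 and 89.8 TPM in BALB/cJ, against 169, 197 and 211 TPM in C57BL/6J, and Ciart, a repressor of the clock, was lower as well (log2 fold change -1.34, SE 0.23). Cry1, a repressor of the core clock, had 12.5 and 9.25 TPM in BALB/cJ, against 2.38, 2.88 and 2.29 TPM in C57BL/6J (log2 fold change 1.98, SE 0.22, adjusted p = 0.0023). Nfil3, a repressor of clock output, had 24 and 21 TPM in BALB/cJ, against 7.90, 10.3 and 5.82 TPM in C57BL/6J. Tspan4 was also called higher (log2 fold change 1.36, SE 0.20), a call lost without BALB/cJ replicate 1 (adjusted p = 0.059) or replicate 2 (adjusted p = 0.054). Nfil3 was lost without the same libraries (adjusted p = 0.11 and 0.079), and Dbp (0.057) and Ciart (0.064) without BALB/cJ replicate 2, while Nr1d1 and Cry1 held throughout. The core genes Per1, Per2, Per3 and Cry2 were not called. Arntl and Clock were below the TPM minimum and not tested. Arntl had 1.86 and 3.05 TPM in BALB/cJ, against 0.315, 0.225 and 0.083 TPM in C57BL/6J, whereas Clock overlapped between strains. In all, 3 members were called without BALB/cJ replicate 2 and 4 without BALB/cJ replicate 1. The sampling time of each library was not given, so strain and time of day cannot be told apart here.

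**Figure D3:**
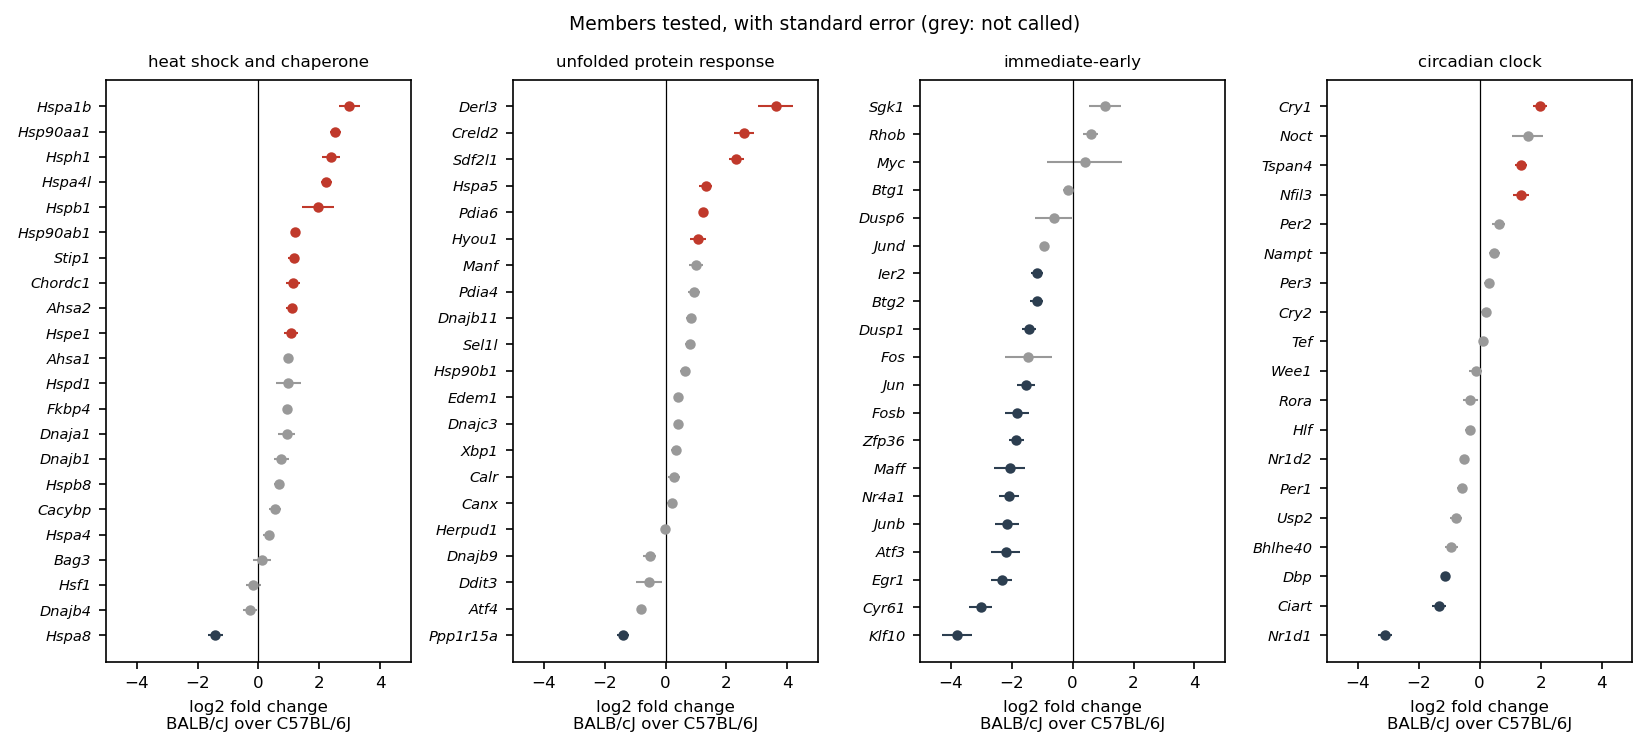
Log2 fold change of BALB/cJ over C57BL/6J hepatocytes with its standard error for tested members of 4 gene lists (heat shock and chaperone, unfolded protein response, immediate-early and circadian clock). Red points were called higher in BALB/cJ, dark points lower and grey points were not called; 10 heat shock genes lie on the right and 13 immediate-early genes on the left.

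Genes of lipid synthesis differed at single steps. Scd1, the desaturase that makes oleic acid, had 155 and 95.4 TPM in BALB/cJ, against 1840, 1690 and 1185 TPM in C57BL/6J. It was 13.9-fold lower in BALB/cJ (log2 fold change -3.79, SE 0.33, adjusted p = 0.0010) and its call held with each library left out. In all, 3 of 26 lipogenesis genes tested were higher in BALB/cJ and 6 were lower, with a median log2 fold change of -0.17. The carbohydrate-responsive factor Mlxipl, the lipins Lpin1 and Lpin2, the elongase Elovl3 and the acetyl-CoA synthetase Acss2 were the others called lower. Elovl3 lost its call without C57BL/6J replicate 3, where its log2 fold change was -0.83. Lpin1, a phosphatidate phosphatase, had 38.6 and 42.3 TPM in BALB/cJ, against 147, 126 and 59.9 TPM in C57BL/6J, with C57BL/6J replicate 3 nearest to BALB/cJ. The call at Lpin1 rested on few libraries, since its adjusted p was 0.185, 0.166, 0.107 and 0.096 without BALB/cJ replicates 1 and 2 and C57BL/6J replicates 1 and 2 in that order. Insig2, which holds the sterol sensor SCAP in the endoplasmic reticulum, had 42.7 and 52.2 TPM in BALB/cJ, against 11.3, 13.3 and 22.1 TPM in C57BL/6J. It was called higher (log2 fold change 1.48, SE 0.25), with an adjusted p of 0.055 without BALB/cJ replicate 1 and 0.081 without replicate 2. Thrsp, a nuclear protein of lipogenesis, was also called higher, with a log2 fold change of 1.08, and lost the call without either BALB/cJ library. It also lost the call without C57BL/6J replicate 1 (log2 fold change 0.999) or replicate 2 (0.979). Scd1 and Acss2 alone held throughout, and they were the 2 members called without BALB/cJ replicate 1 and without BALB/cJ replicate 2.

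Of 24 cholesterol genes tested, 4 were called, all lower in BALB/cJ and all enzymes of the later sterol steps (Sqle, Cyp51, Nsdhl and Sc5d). Nsdhl had 21.1 and 11.6 TPM in BALB/cJ, against 43.3, 40.6 and 45.2 TPM in C57BL/6J (log2 fold change -1.52, SE 0.25, adjusted p = 0.0084) and held throughout. Sc5d had 117 and 92.7 TPM in BALB/cJ, against 291, 251 and 236 TPM in C57BL/6J, with a log2 fold change of -1.44 (SE 0.19). Sqle had a log2 fold change of -1.32 (SE 0.26), and without BALB/cJ replicate 2 the adjusted p was 0.062 for Sc5d and 0.11 for both Sqle and Cyp51, which left Nsdhl. In that fit Mvd, an enzyme of the mevalonate steps, was called higher (log2 fold change 1.49, adjusted p = 0.04998), but not over all libraries (1.03, adjusted p = 0.087). The median of the list was -0.09, near that of all genes. Of 26 lipoprotein genes, Apoa4, an apolipoprotein of intestinal and hepatic particles, was higher, with 179 and 286 TPM in BALB/cJ, against 54.2, 58.9 and 51.0 TPM in C57BL/6J (log2 fold change 1.95, SE 0.22, adjusted p = 0.0022). The endothelial lipase gene Lipg was lower at 2.65 and 2.65 TPM in BALB/cJ, against 6.22, 9.03 and 12.9 TPM in C57BL/6J, close to the limit of testing. Its adjusted p was 0.064 and 0.058 without BALB/cJ replicates 1 and 2 in that order, and without C57BL/6J replicate 3 it was below that limit.

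Of 28 genes of fatty acid oxidation and ketogenesis, 4 were lower in BALB/cJ and 0 were higher, and Cyp4a14, Cyp4a10 and Vnn1 among them are known targets of PPAR alpha, the nuclear receptor that drives fat oxidation in fasting. Cyp4a14, a fatty acid omega-hydroxylase, had 0.765 and 1.45 TPM in BALB/cJ, against 48.4, 249 and 44.9 TPM in C57BL/6J (log2 fold change -6.87, SE 1.18, adjusted p = 0.015). Cyp4a10, its neighbour on chromosome 4, had 1.19 and 3.01 TPM in BALB/cJ, against 94.2, 274 and 91.1 TPM in C57BL/6J (log2 fold change -6.37, SE 0.80, adjusted p = 0.0048). C57BL/6J replicate 2 had the highest level of both by far. The BALB/cJ LSEC libraries held Cyp4a14 at 474, 43.5, 45.6 and 52.7 TPM, beside albumin at 5223, 597, 556 and 993 TPM. The low BALB/cJ level is thus that of these hepatocyte libraries, and the source of Cyp4a14 in the LSEC libraries was not tested. The call at Cyp4a14 was lost without BALB/cJ replicate 1 (adjusted p = 0.095), BALB/cJ replicate 2 (0.073) or C57BL/6J replicate 1 (0.071), while that at Cyp4a10 held. Vnn1, the pantetheinase vanin-1, had 0.278 and 0.213 TPM in BALB/cJ, against 6.52, 14.2 and 22.3 TPM in C57BL/6J (log2 fold change -5.93, SE 0.62, adjusted p = 0.0017). Cyp4a10 and Vnn1 held throughout. The other 24 members, with most mitochondrial enzymes among them, were not called, and the median of the list was -0.07.

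Cytochrome P450 genes of families 1 to 3 had 3 of 31 members higher in BALB/cJ and 7 lower, and 7 of the 10 are Cyp2c genes of chromosome 19. Cyp2c23, an epoxygenase of arachidonic acid, had 16.0 and 13.1 TPM in BALB/cJ, against 656, 500 and 361 TPM in C57BL/6J (log2 fold change -5.27, SE 0.36, adjusted p = 0.00040). Cyp2c39 stood opposite, with 14.7 and 15.3 TPM in BALB/cJ, against 0.211, 0.468 and 0.389 TPM in C57BL/6J (log2 fold change 5.18, SE 0.30, adjusted p = 0.00025). Cyp2c37 had 12.8 and 9.19 TPM in BALB/cJ, against 35.1, 102 and 129 TPM in C57BL/6J, a call lost without BALB/cJ replicate 1 (adjusted p = 0.072) or replicate 2 (0.090). Cyp2c23, Cyp2c39, Cyp2c50 and Cyp2c67 held throughout, and the list had 5 members called without BALB/cJ replicate 1 and 4 without BALB/cJ replicate 2. Genes of this family are near-identical in places, so that reads may have been split between them, and their single values are uncertain. Conjugating enzymes had 6 of 47 members lower in BALB/cJ and 0 higher (median log2 fold change -0.42). Sult5a1, a sulfotransferase, had 3.59 and 4.75 TPM in BALB/cJ, against 18.9, 23.9 and 35.5 TPM in C57BL/6J (log2 fold change -2.78, SE 0.30, adjusted p = 0.0020). Gstm3, a glutathione transferase, had 6.51 and 3.08 TPM in BALB/cJ, against 42.0, 42.8 and 21.1 TPM in C57BL/6J, with an adjusted p of 0.061 without BALB/cJ replicate 2. Ugt2b38, a glucuronosyltransferase, was lost without BALB/cJ replicate 1 (adjusted p = 0.13), BALB/cJ replicate 2 (0.057) or C57BL/6J replicate 1 (0.066). Sult5a1 and Ugt3a2 held throughout, and 3 members were called without BALB/cJ replicate 2, against 11 without C57BL/6J replicate 3.

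Of 26 genes of bile acid synthesis and transport, 3 were called lower, against 4.89% of all genes tested. The 3 were transporters, and none of the synthesizing enzymes was called. Abcc2, the canalicular pump for conjugated bilirubin, had 55.4 and 55.3 TPM in BALB/cJ, against 79.8, 123 and 145 TPM in C57BL/6J (log2 fold change -1.19, SE 0.23). The uptake carriers Slco1a4 and Slco1b2 had log2 fold changes of -1.60 (SE 0.35) and -1.10 (SE 0.30). All 3 calls depended on the libraries: the adjusted p was 0.115, 0.156 and 0.222 for Abcc2, Slco1a4 and Slco1b2 without BALB/cJ replicate 1, and 0.113, 0.124 and 0.194 without BALB/cJ replicate 2, so that no member was called in either case. It was 0.053 for Abcc2 and 0.110 for Slco1b2 without C57BL/6J replicate 2, and 0.077 for Slco1a4 without C57BL/6J replicate 1, and without C57BL/6J replicate 3 Slco1b2 had a log2 fold change of -0.80. Of 18 antioxidant genes of the Nrf2 pathway, Gclc, the limiting enzyme of glutathione synthesis, was lower (log2 fold change -1.17, SE 0.19). It lost the call without BALB/cJ replicate 1 (log2 fold change -1.19) or replicate 2 (-1.17). Without C57BL/6J replicate 3, 3 members of the list were called, Gclc lower and Prdx1 and Nnt higher.

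**Figure D4:**
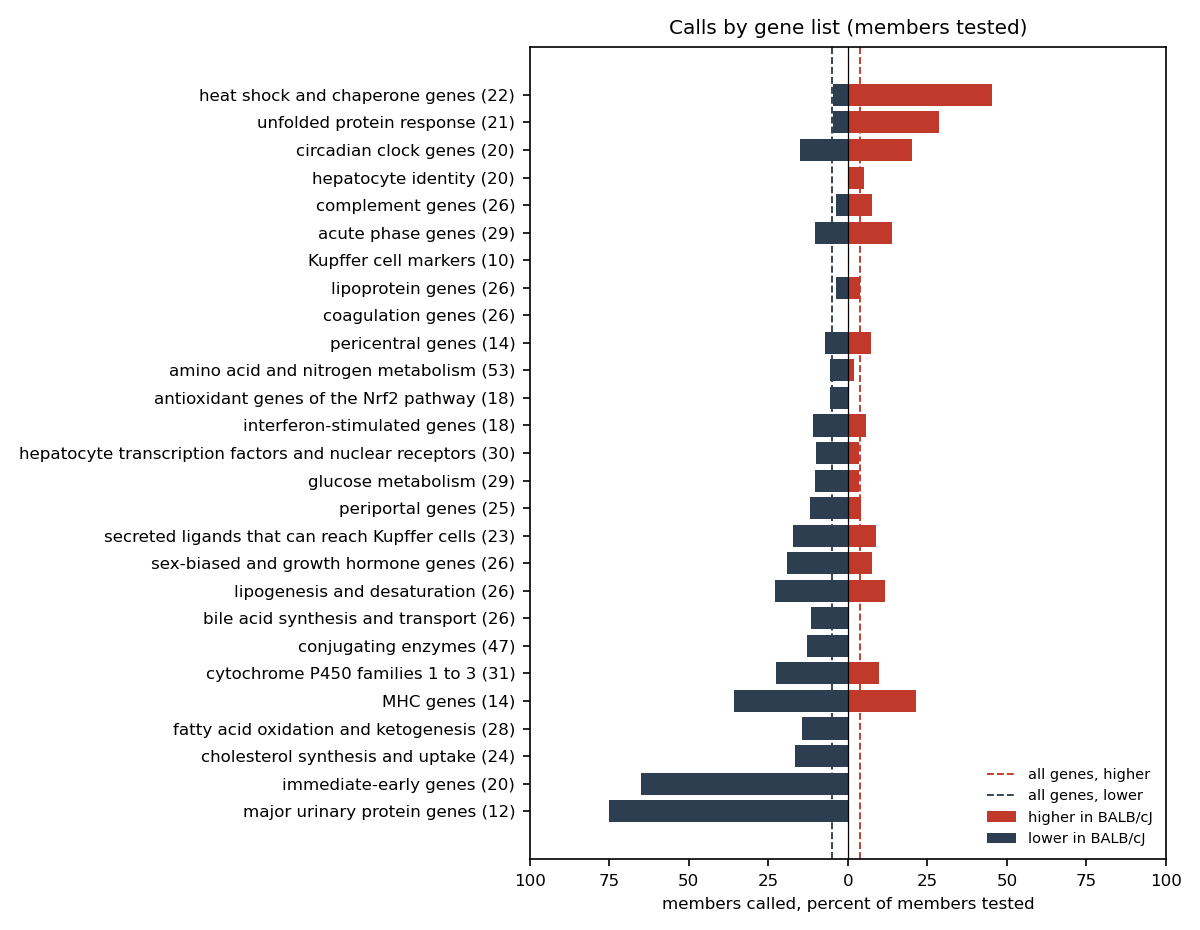
Share of tested members of each gene list called higher (red, to the right) or lower (dark, to the left) in BALB/cJ hepatocytes, for the lists with at least 10 members tested, with the number tested in parentheses. Dashed lines mark the shares of all genes, 3.96% higher and 4.89% lower; heat shock genes extend farthest to the right, and major urinary protein and immediate-early genes farthest to the left.

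Of 26 complement genes tested 2 were higher in BALB/cJ (C1s2 and C4a) and 1 was lower (C6). C4a, the sex-limited form of the fourth component in mice, had 218 and 253 TPM in BALB/cJ, against 5.17, 3.75 and 9.10 TPM in C57BL/6J (log2 fold change 5.17, SE 0.35, adjusted p = 0.00039). It lies in the major histocompatibility region of chromosome 17 (positions 34809092 to 34823460 of mm10) and shares most of its sequence with C4b, so reads of the pair may be exchanged. C6, of the membrane attack complex, had 43.9 and 34.3 TPM in BALB/cJ, against 81.3, 64.3 and 133 TPM in C57BL/6J, and its adjusted p was 0.107, 0.158 and 0.056 without BALB/cJ replicates 1 and 2 and C57BL/6J replicate 1 in that order. None of 26 coagulation genes was called. The acute phase list had 4 of 29 members higher and 3 lower. Apcs, serum amyloid P, a major acute phase protein of mice, had 302 and 316 TPM in BALB/cJ, against 66.9, 64.4 and 46.8 TPM in C57BL/6J (log2 fold change 2.24, SE 0.20, adjusted p = 0.0011). Haptoglobin (Hp) had 2850 and 3674 TPM in BALB/cJ, against 1077, 964 and 1441 TPM in C57BL/6J. Saa2, a serum amyloid A, had 25.5 and 107 TPM in BALB/cJ, against 4.51, 7.52 and 11 TPM in C57BL/6J, so its BALB/cJ libraries differed widely. Its adjusted p of 0.017 was 0.102 without BALB/cJ replicate 2 and 0.124, 0.068 and 0.064 without C57BL/6J replicates 1, 2 and 3 in that order. Apcs held throughout, as did Serpina3m, which was lower in BALB/cJ (log2 fold change -1.655, SE 0.19, adjusted p = 0.0025). Hp lost its call without BALB/cJ replicate 2 (log2 fold change 1.16), and 4 members were called without C57BL/6J replicate 2.

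The iron hormone genes were lower in BALB/cJ. Hamp, which encodes hepcidin, had 988 and 805 TPM in BALB/cJ, against 2519, 1849 and 1249 TPM in C57BL/6J (log2 fold change -1.21, SE 0.32, adjusted p = 0.039), and its paralog Hamp2 had 10.1 and 9.49 TPM in BALB/cJ, against 138, 94.6 and 35.9 TPM in C57BL/6J. C57BL/6J replicate 3 was the lowest of its strain at both genes. Hamp2 had an adjusted p of 0.11 without either BALB/cJ library. Hamp had 0.16 and 0.24 without BALB/cJ replicates 1 and 2 and 0.099 without C57BL/6J replicate 2, and a log2 fold change of -0.90 without C57BL/6J replicate 1. Of 18 interferon-stimulated genes tested, 1 was higher and 2 were lower. Iigp1, an immunity-related GTPase, had 44.2 and 46.8 TPM in BALB/cJ, against 204, 164 and 162 TPM in C57BL/6J (log2 fold change -2.09, SE 0.19, adjusted p = 0.0011). Irf7, an interferon regulatory factor, had a log2 fold change of -1.48 (SE 0.29) and the GTPase gene Igtp one of 1.20 (SE 0.25). Iigp1 held throughout. Irf7 had an adjusted p of 0.094 and 0.127 without BALB/cJ replicates 1 and 2 and of 0.050 without C57BL/6J replicate 2. Igtp had 0.096 and 0.130 without BALB/cJ replicates 1 and 2, and a log2 fold change of 0.99 without C57BL/6J replicate 1. Without C57BL/6J replicate 3 the list had 4 members higher and 4 lower, and without either BALB/cJ library 1 member was called.

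Of 14 genes of the major histocompatibility complex list, 3 were higher in BALB/cJ and 5 were lower. H2-K1, a classical class I chain, had 319 and 333 TPM in BALB/cJ, against 561, 591 and 672 TPM in C57BL/6J, and B2m, the light chain of class I, had 1988 and 1916 TPM in BALB/cJ, against 6072, 3928 and 2715 TPM in C57BL/6J. Both lost the call without either BALB/cJ library, with adjusted p of 0.063 and 0.054 for H2-K1 and 0.21 and 0.23 for B2m. B2m also lost it without C57BL/6J replicate 1 (log2 fold change -0.87) or replicate 2 (adjusted p = 0.10). H2-Q6 had 32.8 and 25.0 TPM in BALB/cJ, against 3.99, 4.36 and 5.00 TPM in C57BL/6J, whereas H2-Q7 had 1.72 and 2.07 TPM in BALB/cJ, against 24, 17.6 and 13.5 TPM in C57BL/6J. These non-classical class I genes thus moved in opposite directions. The files give H2-Q6 and H2-Q8 the same counts in all 5 libraries, and likewise H2-Q7 and H2-Q9, so each pair counts the same reads. The H2-Q genes other than H2-Q10 held throughout, and the list had 5 and 4 members called without BALB/cJ replicates 1 and 2 in that order. The strains carry different haplotypes at this locus, and sequence that differs from mm10 by more than small variants was not part of the genome to which the BALB/cJ reads were mapped. The window of chromosome 17 from 34000001 to 36000000 held 9 called genes of 49 tested, among them H2-Q4, H2-Q5, H2-Q10, C4a and Hspa1b.

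Major urinary proteins, pheromone carriers made by the liver and cleared into urine, had low levels at most members in BALB/cJ. Of 12 tested, 9 were called lower in BALB/cJ and 0 higher, and 8 of the 9 lie between 60000001 and 62000000 on chromosome 4. Mup1, Mup6, Mup7, Mup9, Mup11, Mup12, Mup14, Mup16 and Mup17 had at most 0.487 TPM in BALB/cJ. They passed the minimum of 8 TPM through C57BL/6J alone and could be called only lower. The number called and the median of the list therefore lean on that filter. Of Mup3, Mup20 and Mup21, which also passed it in BALB/cJ, Mup20 alone was called. Mup7 had 0.057 and 0.348 TPM in BALB/cJ, against 200, 529 and 1684 TPM in C57BL/6J (log2 fold change -12.18, SE 1.56, adjusted p = 0.0061). Mup11 had 0.185 and 0.377 TPM in BALB/cJ, against 264, 532 and 2021 TPM in C57BL/6J. Mup17 had 0.064 and 0.487 TPM in BALB/cJ, against 119, 244 and 1685 TPM in C57BL/6J, with an adjusted p of 0.097, 0.078 and 0.055 without BALB/cJ replicates 1 and 2 and C57BL/6J replicate 1 in that order. C57BL/6J replicate 3 was the highest library at these 3 genes, by more than 3 times at each. Mup1 had no read in BALB/cJ and was at least 133-fold lower there, with the floor of 3 counts in each library. Its call was lost without BALB/cJ replicate 1 (adjusted p = 0.13), BALB/cJ replicate 2 (0.11), C57BL/6J replicate 1 (0.12) or C57BL/6J replicate 2 (0.068). The median log2 fold change of the list was -9.44, or -6.91 with the 3 members at 0 in BALB/cJ set at their bounds. Not all of the family was low: Mup3 had 11974 and 11249 TPM in BALB/cJ, against 8186, 12893 and 12273 TPM in C57BL/6J (log2 fold change -0.06, SE 0.19, adjusted p = 0.83). Mup20, or darcin, had 354 and 445 TPM in BALB/cJ, against 1799, 1349 and 2680 TPM in C57BL/6J (log2 fold change -2.41, SE 0.29). The family is made of near-identical copies whose number differs between strains, so values of single members are uncertain, and 3 members were called without BALB/cJ replicate 1, 4 without BALB/cJ replicate 2 and 6 without C57BL/6J replicate 1.

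The alpha-1 antitrypsin genes, plasma inhibitors of elastase, were split as well. Serpina1e had 609 and 599 TPM in BALB/cJ, against 11768, 9151 and 11406 TPM in C57BL/6J, and Serpina1d had 136 and 196 TPM in BALB/cJ, against 3661, 3165 and 2629 TPM in C57BL/6J. Serpina1a, Serpina1b and Serpina1c were not called, with log2 fold changes of 0.10, 0.44 and -0.36. Among 26 sex-biased and growth hormone-dependent genes, 2 were higher (C4a and Fmo2) and 5 were lower (Prlr, Elovl3, Cyp4a12b, Mup20 and Susd4). C4a and Mup20 are both known as male-biased in mice, and they were called in opposite directions. Prlr lost its call without BALB/cJ replicate 1 (adjusted p = 0.11) or replicate 2 (0.16), and without C57BL/6J replicate 2 it had a log2 fold change of -0.98. Susd4 had 2.07 and 0.953 TPM in BALB/cJ, against 7.37, 7.62 and 21.6 TPM in C57BL/6J, and lost its call without BALB/cJ replicate 1 (adjusted p = 0.065) or replicate 2 (0.106). Without C57BL/6J replicate 3 it was under the limit of testing. Elovl3 kept its call in 1 of the 5 fits with a library left out, and Cyp4a12b in 2 of the 5. The list had 3 members called without either BALB/cJ library.

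In glucose metabolism, 1 of 29 genes was higher and 3 were lower. Igfbp2, a binding protein of insulin-like growth factors that falls with insulin, had 157 and 238 TPM in BALB/cJ, against 492, 667 and 656 TPM in C57BL/6J (log2 fold change -1.74, SE 0.23, adjusted p = 0.0037). Igfbp1, a related protein induced by fasting, had 2.54 and 10.2 TPM in BALB/cJ, against 49.5, 87.0 and 23.5 TPM in C57BL/6J, and kept its adjusted p of 0.042 near the threshold without C57BL/6J replicate 3 (0.047). It was 0.139, 0.055, 0.165 and 0.081 without BALB/cJ replicates 1 and 2 and C57BL/6J replicates 1 and 2 in that order. Ppp1r3b, a glycogen-targeting phosphatase subunit, had 82.6 and 74.7 TPM in BALB/cJ, against 18.5, 17.9 and 44.2 TPM in C57BL/6J, with an adjusted p of 0.033 that was between 0.091 and 0.165 in the 4 fits without another single library and 0.00016 without C57BL/6J replicate 3. Igfbp2 held throughout. Pfkfb3 was the other gene called lower, and the list had 2 members called without BALB/cJ replicate 1 or C57BL/6J replicate 1 and 1 without BALB/cJ replicate 2. Of 53 genes of amino acid and nitrogen metabolism, 1 was higher and 3 were lower, a share of 7.55% that is near the 8.85% of all genes. Ahcy, which hydrolyses S-adenosylhomocysteine, had 14.3 and 20.3 TPM in BALB/cJ, against 55.9, 86.8 and 110 TPM in C57BL/6J (log2 fold change -2.40, SE 0.29, adjusted p = 0.0030). The histidine-degrading enzymes Amdhd1 (log2 fold change -1.35, SE 0.16) and Hal (-1.19, SE 0.32) were lower as well. Ahcy and Amdhd1 held throughout, whereas Hal had an adjusted p of 0.23, 0.17 and 0.087 without BALB/cJ replicates 1 and 2 and C57BL/6J replicate 2, and a log2 fold change of -0.83 without C57BL/6J replicate 1. Sdsl, a serine dehydratase-like enzyme, was higher (log2 fold change 1.42, SE 0.22), with an adjusted p of 0.067 without BALB/cJ replicate 2.

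Among genes of the zones of the liver lobule, 14.3% of the pericentral and 16% of the periportal genes tested were called, against 8.85% of all genes. Pericentral genes had 1 of 14 members higher (Cyp2c29) and 1 lower (Gstm3), and periportal genes had 1 of 25 higher (Gldc) and 3 lower (Hal, Ctsc and Sult5a1). Gldc, of the glycine cleavage system, had 122 and 115 TPM in BALB/cJ, against 56.9, 42.5 and 38.1 TPM in C57BL/6J, with an adjusted p of 0.093 and 0.081 without BALB/cJ replicates 1 and 2 in that order. Cyp2c29 had a log2 fold change of 1.04 (SE 0.25), which was 0.82 without C57BL/6J replicate 1, and an adjusted p of 0.146, 0.169 and 0.081 without BALB/cJ replicates 1 and 2 and C57BL/6J replicate 2. Ctsc had an adjusted p of 0.044, which was 0.195, 0.227, 0.159 and 0.120 without BALB/cJ replicates 1 and 2 and C57BL/6J replicates 1 and 2 in that order. Without C57BL/6J replicate 3 the periportal list had 6 members called and the pericentral list 3, and without either BALB/cJ library the periportal list had 1. Of 30 hepatocyte transcription factors and nuclear receptors, Hes1, a target of Notch, was the member that fell most, with 7.69 and 3.60 TPM in BALB/cJ, against 25.3, 33.6 and 35.0 TPM in C57BL/6J (log2 fold change -2.58, SE 0.33, adjusted p = 0.0033). Onecut2 and Thra were lower by smaller amounts. Hes1 held throughout. Onecut2 had an adjusted p of 0.055 without BALB/cJ replicate 2. Thra had 0.12 without that library and 0.072 without C57BL/6J replicate 2, and a log2 fold change of -0.98 without C57BL/6J replicate 1, and 2 members of the list were called without BALB/cJ replicate 2.

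Among 23 secreted ligands that can reach Kupffer cells, 2 were higher in BALB/cJ and 4 were lower. Leap2, a liver peptide that blocks the ghrelin receptor, had 93.1 and 83.3 TPM in BALB/cJ, against 22.4, 17.6 and 29.9 TPM in C57BL/6J (log2 fold change 1.80, SE 0.22, adjusted p = 0.0032). Gas6, a ligand of the receptor kinases Tyro3, Axl and Mertk, had 12.3 and 8.82 TPM in BALB/cJ, against 3.12, 4.17 and 5.27 TPM in C57BL/6J (log2 fold change 1.20, SE 0.25). Leap2 held throughout, whereas Gas6 had an adjusted p of 0.15, 0.054 and 0.073 without BALB/cJ replicates 1 and 2 and C57BL/6J replicate 2 in that order. Gdf15, a stress hormone that acts on the hindbrain, had 9.25 and 15.1 TPM in BALB/cJ, against 35.8, 50.6 and 70.6 TPM in C57BL/6J, and its adjusted p of 0.0050 was 0.055 without BALB/cJ replicate 1. Ccl9, a chemokine of myeloid cells, Igfbp1 and Hamp were the others called lower. The list had 2 members called without BALB/cJ replicate 1, 3 without BALB/cJ replicate 2 or C57BL/6J replicate 2 and 8 without C57BL/6J replicate 3.

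Part of the calls fell on genes with near-identical copies. Of 56 ribosomal protein genes tested, 13 were called (23.2%), 8 higher and 5 lower. Rps16 had 27.7 and 32.7 TPM in BALB/cJ, against 0.213, 0.237 and 0.263 TPM in C57BL/6J, and Rpl28 had 46.3 and 57.3 TPM in BALB/cJ, against 1.06, 1.47 and 1.47 TPM in C57BL/6J. Rpl37 had 0.324 and 0.298 TPM in BALB/cJ, against 10.1, 10.7 and 21.5 TPM in C57BL/6J. The proton pump gene Atp6v0c (0.316 and 0.967 TPM in BALB/cJ, against 28.0, 25.0 and 18.5 TPM in C57BL/6J) and its listed copy Atp6v0c-ps2 (0.351 and 0.306 TPM in BALB/cJ, against 31.1, 27.2 and 20.4 TPM in C57BL/6J) moved together. Another pump gene, Atp6v0e2, had 7.85 and 9.90 TPM in BALB/cJ, against 0, 0 and 0.087 TPM in C57BL/6J, with 2 counts over the C57BL/6J libraries and a ratio of 248 (95% counting interval 68.2 to 2050). Of the tested genes, 10 had the same counts as another gene in all 5 libraries, and all 10 were called, among them Rpl26 with Gm15772 and Rpl30 with Gm12191. BALB/cJ reads were mapped to a BALB/cJ genome and C57BL/6J reads to mm10, so for such genes the strain and the mapping cannot be told apart. Without gene models, ribosomal protein genes and the multigene families, 425 of 5382 genes were called, 200 higher and 225 lower.

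The strain comparison was also made in other liver cells, from libraries of their own. The same contrast called 463 of 7803 genes in Kupffer cells (5.93%), 333 of 8751 in LSECs (3.81%) and 857 of 9195 in stellate cells (9.32%). Of the genes called in hepatocytes, 293 were tested in Kupffer cells and 48 of them (16.4%) were called there in the same direction, which is 10.4% of the Kupffer cell calls. The same counts were 46 of 314 (14.7%) for LSECs, or 13.8% of the LSEC calls, and 73 of 324 (22.5%) for stellate cells, or 8.52% of the stellate cell calls. In the opposite direction 7, 4 and 8 genes were called in Kupffer cells, LSECs and stellate cells in that order. Of 255 hepatocyte calls tested in all 4 cell types, 30 were called in the same direction in each, 11 higher and 19 lower. Among the 30 were 9 ribosomal protein genes (Rps16 and Rpl28 included), Atp6v0c, Atp6v0c-ps2, Atp6v0e2, Serpina1d, Serpina1e, H2-Q7 and Hspa8. Hspa8 had log2 fold changes of -1.41 in hepatocytes, -1.81 in Kupffer cells, -1.58 in LSECs and -1.77 in stellate cells, and Rps16 had 6.76, 8.03, 5.60 and 6.26 in the same cells.

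Whether the strain difference itself differed between hepatocytes and LSECs was tested with 4 LSEC libraries of each strain in a joint fit. According to the study's methods, LSECs were freed with a different enzyme, digested for longer and sorted. The labels do not say whether both cell types came from the same mice. Cell type therefore cannot be told apart from preparation, animals or time of day in this test. The hepatocyte identity genes were also detected in LSECs. They summed to 11239, 1201, 1243 and 2045 TPM in BALB/cJ LSECs and to between 1434 and 2816 TPM in C57BL/6J LSECs, so BALB/cJ LSEC replicate 1 stood apart. Of 4786 genes tested, 301 were called (6.29%), 127 with a more positive difference in hepatocytes (2.65%) and 174 with a more negative one (3.64%). Of the genes called in hepatocytes, 316 were in this test and 159 of them (50.3%) were called. The 316 genes had been picked for a large strain difference in the same hepatocyte libraries. A share above that of all genes follows from this choice and says nothing further. Nr1d1 was among the 159, with a hepatocyte difference below that in LSECs by 3.47 on the log2 scale (SE 0.51, adjusted p = 0.0013). LSECs had 12.8 ± 6.39 TPM in BALB/cJ and 9.95 ± 2.40 TPM in C57BL/6J (SD, n = 4 each). Cry1 (2.32, SE 0.30) and Tspan4 (1.57, SE 0.23) of the clock list also differed more positively in hepatocytes, and Klf10 more negatively (-3.05, SE 0.46, adjusted p = 0.0013). Of the folding genes, Hsp90aa1 (1.89, SE 0.33), Hsp90ab1 (1.05, SE 0.31) and Creld2 (1.85, SE 0.49) were called (adjusted p = 0.0024, 0.033 and 0.025), whereas Hsph1, Hspa1b, Hspa5 and Pdia6 were not. Hsp90aa1 was called in each of the 12 fits with 1 library left out in which it was tested. Creld2 lost the call without BALB/cJ hepatocyte replicate 1 (adjusted p = 0.12) or C57BL/6J hepatocyte replicates 1 (0.051) or 2 (0.062), and Hsp90ab1 without any of 9 of the 13 libraries. Fmo2 had 23.3 ± 20.0 TPM in BALB/cJ LSECs and 31.5 ± 21.6 TPM in C57BL/6J LSECs (SD, n = 4 each). Its strain difference was larger in hepatocytes by 5.43 (SE 1.06, adjusted p = 0.0072). H2-Q5 and H2-Q8 also differed more positively in hepatocytes, by 5.13 (SE 0.49) and 3.32 (SE 0.49), with means of 19.4 and 65.1 TPM in BALB/cJ LSECs and 31.9 and 110 TPM in C57BL/6J LSECs. Atp6v0e2 differed more positively as well (5.20, SE 0.65), with 35.3 ± 3.77 TPM in BALB/cJ LSECs and 5.93 ± 1.69 TPM in C57BL/6J LSECs (SD, n = 4 each), and this size rests on the 2 counts in C57BL/6J hepatocytes. The fatty acid hydroxylases gave the most negative values, -7.04 (SE 1.78, adjusted p = 0.023) for Cyp4a14 and -6.67 (SE 1.75, adjusted p = 0.027) for Cyp4a10. Cyp4a14 stood at 474, 43.5, 45.6 and 52.7 TPM in BALB/cJ LSECs, against 110, 173, 80.2 and 175 TPM in C57BL/6J LSECs. BALB/cJ LSEC replicate 1 was the highest by far, and without it the differences were -5.38 for Cyp4a14 and -4.69 for Cyp4a10. Every BALB/cJ LSEC library had more Cyp4a14 than either BALB/cJ hepatocyte library. Both calls were lost without BALB/cJ hepatocyte replicate 1 (adjusted p = 0.11 and 0.13) or replicate 2 (0.086 for each), and that of Cyp4a10 also without C57BL/6J hepatocyte replicate 2 (0.057). Scd1, with -3.81 in hepatocytes and -1.54 in LSECs in this fit, was not called (difference -2.27, SE 0.96, adjusted p = 0.12).

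**Figure D5:**
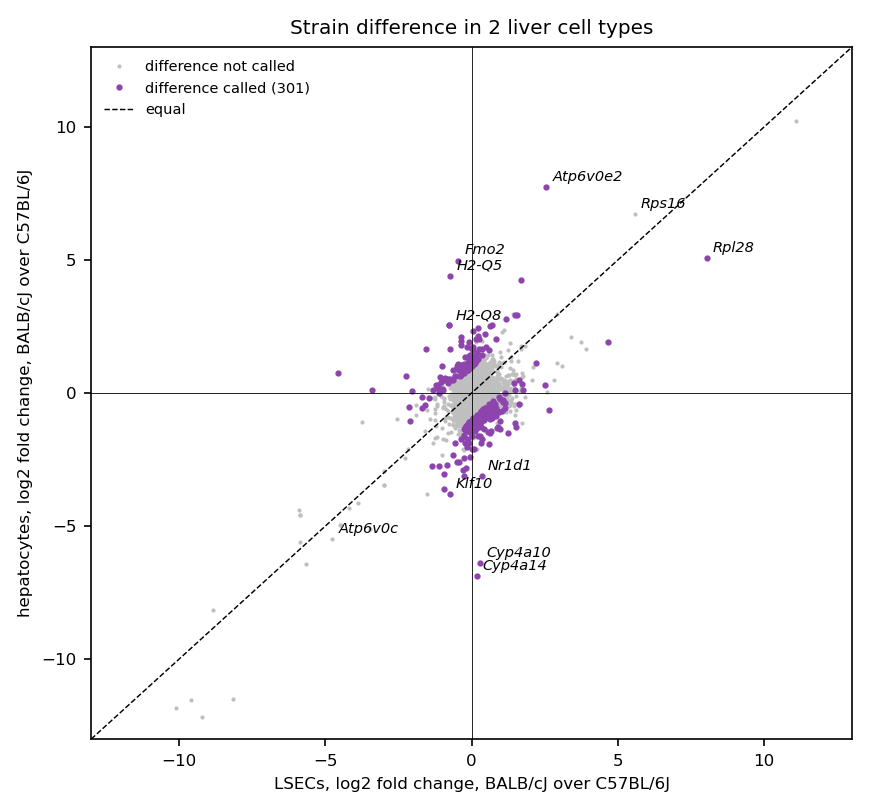
Log2 fold change of BALB/cJ over C57BL/6J in hepatocytes (vertical axis) against that in LSECs (horizontal axis) for 4786 genes in the joint fit, with the dashed line marking equal differences. The 301 purple genes were called for a difference between the cell types; Cyp4a14 and Cyp4a10 lie far below the line, Fmo2 and H2-Q5 above it, and Rps16 and Atp6v0c near it.

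Hepatocytes of A/J mice, a further inbred strain with 2 libraries, were set beside both strains at the 507 called genes. Nearness was taken on log2(TPM + 1). A/J replicate 1 was nearer to the BALB/cJ mean at 202 genes and to the C57BL/6J mean at 305, and A/J replicate 2 at 219 and 288. At Scd1 the A/J libraries had 705 and 426 TPM, between the other strains. At Clec2h (0.099 and 0.206 TPM), Mug2 (4.42 and 4.25 TPM) and C1s2 (5.94 and 8.84 TPM) they lay near BALB/cJ, and at Dio1 (112 and 145 TPM) and Derl3 (1.13 and 0.445 TPM) near C57BL/6J. Hsp90aa1 had 24.8 and 16.1 TPM in A/J, below both BALB/cJ libraries and above every C57BL/6J library.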

How the data were processed

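Polyadenylated RNA of purified hepatocytes was sequenced. The authors mapped BALB/cJ reads to a BALB/cJ genome (mm10 with that strain's known small variants) and C57BL/6J reads to mm10, and deposited raw counts and TPM (levels scaled for transcript length and library depth) per gene. STAR, HOMER and DESeq2 are named in the submitters' processing notes. Versions and the strand setting are not given in the sources used here. Here 2 of 20 deposited tables were used, with 33 of their columns left out. Members, lists and tests were chosen with earlier results of these data known.

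Raw counts were fitted with edgeR 4.0.16 (R 4.3.3; TMM scaling, robust quasi-likelihood test, Benjamini-Hochberg adjustment over all genes tested). A gene was tested if it passed filterByExpr and a mean of 8 TPM in either strain, and called where the adjusted p was below 0.05 and the log2 fold change beyond 1 in either direction. The fold change is BALB/cJ over C57BL/6J. Libraries held 9187077 to 21445259 counts, and the TPM columns summed to 572785 to 582105. Intervals and floors cover counting error only. Numbers of fits given for a gene refer to each library left out in turn.

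Genes described were Nnt, Apoe and Scd1, up to 3 called members with the largest change of each of 31 lists, the 12 largest calls in each direction outside gene models and multigene families, and the 4 largest differences from LSECs in each direction. Further genes were named after their values were seen, and some counted list members are not reported here. Of the symbols tested, 5625 matched RefSeq (GRCm38.p6) directly and 94 by synonym. Sequences are RefSeq promoters, cut to the 250 bases before the first listed start.

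In simulated counts for 5731 genes, the test recovered 91% of genes changed by 1.5 on the log2 scale, 98.5% at 2 and 100% at 3. For the difference from LSECs, simulated for 4786 genes, it recovered 79.1%, 91% and 98.5% at the same sizes. Alternatives were other scalings, filters and tools, A/J in the fit, a replicate block and each library left out. A count without gene models and multigene families was added after the data were seen.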

Additional observations from a re-analysis of the deposited data

Results flagged for a closer look

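The strain difference in hepatocytes differed from that in LSECs at 301 of 4786 genes (6.29%) by a test of the difference itself. Cell type and preparation cannot be told apart in that test. The most negative among genes called in hepatocytes were Cyp4a14 (-7.04), Cyp4a10 (-6.67), Nr1d1 (-3.47) and Klf10 (-3.05), and the most positive were Fmo2 (5.43), Atp6v0e2 (5.20), H2-Q5 (5.13) and H2-Q8 (3.32), all on the log2 scale. At these 8 genes, 3 of 16 groups of 4 LSEC libraries held a library far from the others. Chance gives about 1 in 20 for independent groups, which these are not, since the same libraries recur. They were Cyp4a14 at 474 TPM and Cyp4a10 at 272 TPM in BALB/cJ LSEC replicate 1, and Fmo2 at 53.2 TPM in BALB/cJ LSEC replicate 4. BALB/cJ LSEC replicate 1 also had the highest albumin of the LSEC libraries, at 5223 TPM, against at most 1530 TPM in C57BL/6J LSECs, and the part of this in the Cyp4a values was not tested.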

How the results depend on the processing

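With each library left out in turn, 240 to 686 genes were called (104 to 306 higher and 121 to 380 lower in BALB/cJ), the lowest totals without BALB/cJ replicate 1 (240) or replicate 2 (255). With filterByExpr alone 1171 genes were called (548 higher, 623 lower), with no filter 1238 (571 and 667), and by adjusted p alone 1181 (546 and 635). DESeq2 called 553 genes and 466 with shrunken fold changes, relative log expression scaling 504, library totals 522, a TPM minimum on the mean of both strains 389 and A/J in the fit 512. Over the 83 called named genes, 31 lost the call without at least 1 library, 18 under another setting, and none changed direction under the alternatives run. For the difference from LSECs, 1054 genes were called without the TPM minimum (380 positive, 674 negative), and 255 to 373 with 1 library left out (102 to 158 positive, 146 to 215 negative).

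The replicate block called 698 genes between strains and 379 for the difference from LSECs. The deviations of libraries with the same number correlated at r = 0.17 for number 1 and -0.04 for number 2. With 2 BALB/cJ libraries the deviations of 1 mirror those of the other. The check therefore cannot decide whether the numbers pair the libraries. Strain and the genome used for mapping cannot be told apart, and with 2 BALB/cJ libraries genes under 8 TPM in both strains were not tested.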
